A study of Mus musculus with 30 samples.

Results

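The 10 genes described here are markers of the GABAergic interneurons of the mouse striatum: Gad1, Gad2, Lhx6, Pvalb, Sst, Npy, Nos1, Th, Calb2 and Vip. They were chosen by name as the usual markers of these cells, and each was found in both gene tables, among 50508 genes in the striatum and 53278 genes in the subventricular zone (SVZ). Both tissues of 15 adult C57Bl/6 mice were sequenced as bulk RNA, 1 library from each tissue of a mouse. The study asked what happens to striatal neurons when the endogenous neural precursor cells (eNPCs) of the neighbouring SVZ are lost. NestinTK+ mice carry thymidine kinase under the second intron enhancer of Nestin, so that ganciclovir (GCV) kills dividing cells that express the transgene. Transgenic mice given GCV, NestinTK+GCV+, are the ablated group (5 mice, A1 to A5). The 10 controls were 3 NestinTK-GCV+ mice (G1 to G3), wild type and given GCV, 3 NestinTK-PBS+ mice (P1 to P3), wild type and given the vehicle PBS, and 4 NestinTK+PBS+ mice (T1 to T4), which carry the transgene and were given PBS. GCV or PBS was given under the skin, and mice are numbered within a group by their number in the labels. GCV libraries bear lower library numbers than PBS libraries, so that treatment and numbering order cannot be told apart. The labels name SVZ samples as neural precursor cells, but the RNA came from dissected tissue, and genes of striatal spiny neurons summed to 3710 to 11900 CPM (counts of a library scaled to a common total, after TMM) there.

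Striatal neurons are mostly spiny projection neurons, which are themselves GABAergic, and interneurons are a small minority. Parvalbumin cells are the fast-spiking interneurons, which contact the somata of spiny neurons and give strong feed-forward inhibition, and they are denser dorsolaterally than ventrally. A separate type makes somatostatin, neuropeptide Y and nitric oxide synthase together. Smaller types are marked by tyrosine hydroxylase, by calretinin (Calb2) or by vasoactive intestinal peptide.

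The striatum libraries, made with a kit that reads transcript ends (QuantSeq), held 2626962 to 4693441 counts. Those of the SVZ, made with a low-input kit that reads whole transcripts (SMART-Seq), held 8360810 to 21056005. In the SVZ Dcx, a neuroblast gene, was at 15.5 to 26.1 CPM in ablated mice and at 23.4 to 108 CPM in controls. Libraries of 4 mice stood apart from their labelled tissue. The striatum library of control mouse T2 (NestinTK+PBS+) held 227 CPM of Slc17a6 and 266 CPM of Prkcd, both genes of thalamic neurons, against at most 21.6 and 11.3 CPM in the other striatum libraries, while its spiny neuron genes summed to 4773 CPM against 9489 or more elsewhere. Its 4 choroid plexus genes summed to 1382 CPM, against at most 34.8 CPM in the other striatum libraries. The SVZ library of mouse T2 held 188 CPM of Prkcd, against at most 12.8 CPM in the other SVZ libraries. Slc17a6 was at 0.0699 CPM in it. In the SVZ, 7 genes of cortical excitatory neurons summed to 698 CPM in control mouse G2 and 719 CPM in ablated mouse A5, and to at most 116 CPM in the other 13 libraries. In the striatum the cortical genes summed to 665 CPM in mouse G2 and 379 CPM in control mouse T4, against at most 171 CPM in the other 13 libraries.

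In the striatum Pvalb was lower in ablated mice, and it was the single member called of 10. Genes were called at an unadjusted p-value of at most 0.01 with at least a 2-fold change, the study's own thresholds, which 107 of 15419 tested genes passed (0.694%). Of the members 0 had an adjusted p-value under 0.05 by DESeq2, by limma-voom or in the quasi-likelihood test of edgeR with Benjamini-Hochberg adjustment, as 0.182% of genes did, and 2 of 10 had an unadjusted p-value under 0.05, as 10.5% of genes did. The median log2 fold change of the members was -0.089, and that of all genes tested was 0.0037. A lower level in such bulk tissue cannot separate fewer cells of a type from less RNA per cell.

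Pvalb encodes parvalbumin, a calcium-binding protein of fast-spiking cells, at chr15:78191114-78206400 on the minus strand of GRCm38. In NestinTK+GCV+ striatum it stood at 48.8, 25.4, 34.9, 29.2 and 13.1 CPM in mice A1 to A5. In NestinTK-GCV+ mice G1 to G3 it was at 56.6, 73.9 and 17.0 CPM, and in NestinTK-PBS+ mice P1 to P3 at 63.2, 101.5 and 56.1 CPM. In NestinTK+PBS+ mice T1 to T4 it was at 40.9, 561, 121.5 and 45.8 CPM. All 5 ablated libraries lay below the control median of 59.9 CPM, but the groups overlapped, because controls G3, T1 and T4 lay below ablated mouse A1, while the other 7 controls were above every ablated mouse. Mouse T2 was far above every other library.

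The log2 fold change of Pvalb was -1.90 (SE 0.592, unadjusted p-value 0.00384, adjusted p = 0.214 in the quasi-likelihood test of edgeR with Benjamini-Hochberg adjustment), a mean of 30.3 ± 13.1 CPM (SD, n = 5) against 114 ± 160 CPM (n = 10). Without mouse T2 the control mean was 64.1 ± 31.6 CPM (n = 9). The log2 fold change was then -1.07 (SE 0.312, unadjusted p-value 0.00208, adjusted p = 0.148 by edgeR), still called among 0.622% of genes. Without mouse G2 or T4, whose striatum libraries held the most cortical RNA, it was -1.95 and -1.99 (adjusted p = 0.259 and 0.194 by edgeR). The call was lost when ablated mouse A2, A4 or A5 was left out, with unadjusted p-values of 0.0113, 0.0105 and 0.0148 by edgeR.

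**Figure D1:**
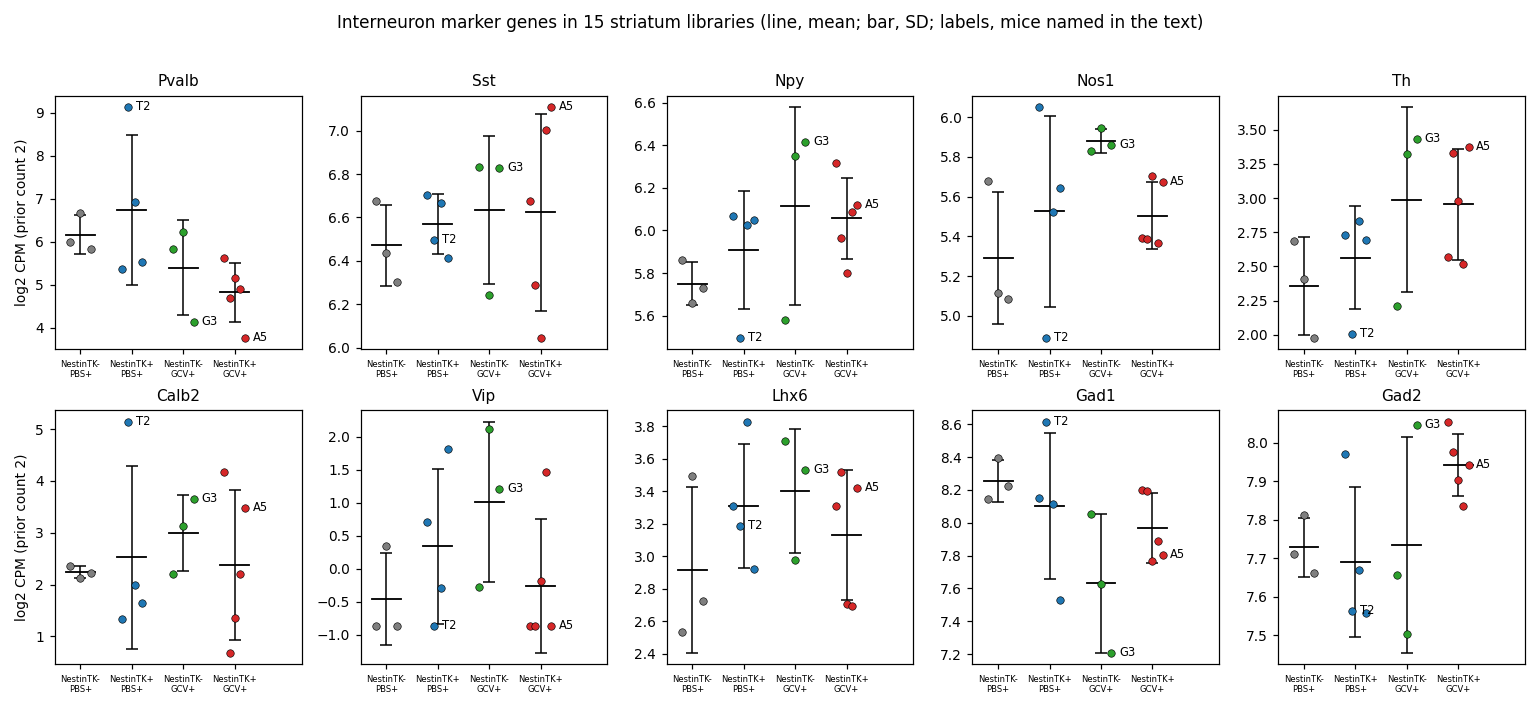
Level of each member in the 15 striatum libraries (points; y axis, log2 CPM with a prior count of 2) by group of genotype and treatment, with the mean (line) and SD (bar) of each group. Pvalb was lowest in ablated mouse A5 and control mouse G3 and highest in control mouse T2, while ablated and control libraries overlapped in the other members.

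Among the 4 groups, the mean Pvalb level ran upwards in the order NestinTK+GCV+ (30.3 ± 13.1 CPM, n = 5), NestinTK-GCV+ (49.2 ± 29.2 CPM, n = 3), NestinTK-PBS+ (73.6 ± 24.4 CPM, n = 3) and NestinTK+PBS+ (192 ± 249 CPM, n = 4). Neighbours in this order differed by less than the spread between mice. The place of NestinTK+PBS+ rested on mouse T2, without which its mean was 69.4 ± 45.2 CPM (n = 3), below that of NestinTK-PBS+ mice. Ablated mice did not pass the test against NestinTK-GCV+ mice, which had the same drug (log2 fold change -0.69, SE 0.596, adjusted p = 0.605 by edgeR). Without mouse T2, which is in neither group but enters the spread, it was again -0.69 (SE 0.356, unadjusted p-value 0.064, adjusted p = 0.28 by edgeR). Against NestinTK+PBS+ mice, which had the same transgene, the log2 fold change was -2.66 (SE 0.547, adjusted p = 0.043 by edgeR), and -1.19 (adjusted p = 0.278 by edgeR) without mouse T2. The interaction term, the effect of the drug with the transgene beyond that without it, was -2.08 (SE 0.844, unadjusted p-value 0.0214, adjusted p = 0.235 by edgeR) and -0.61 without mouse T2 (unadjusted p-value 0.255, adjusted p = 0.616 by edgeR). These comparisons share mice and are not independent of each other.

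Over the 4-group contrasts in the striatum, Pvalb was the 1 member called in NestinTK+GCV+ against NestinTK+PBS+ mice, where 1.35% of genes were called and 1 member was under an unadjusted 0.05, as 10.1% of genes were. By edgeR 0 members were called in NestinTK+GCV+ against NestinTK-GCV+ mice (2.1% of genes), with 0 under an unadjusted 0.05 (17.7% of genes). For the drug in wild-type mice 0 were called (2.46% of genes) and 2 were under 0.05 (16.1%). For the transgene under PBS 0 were called (0.83%) and 1 was under 0.05 (6.41%), and for the interaction 0 were called (3.28%) and 2 were under 0.05 (15.1%). Without mouse T2 the members under 0.05 numbered 2 against NestinTK+PBS+ mice (7.47% of genes), 1 against NestinTK-GCV+ mice (20.3%), 4 for the drug in wild-type mice (19%), 1 for the transgene (6.71%) and 3 for the interaction (17.2%). The 2 members under 0.05 for the drug in wild-type mice were Nos1, with a log2 difference of GCV minus PBS of 0.57 (SE 0.223, adjusted p = 0.194 by edgeR), and Gad1, with -0.59 (SE 0.216, adjusted p = 0.159 by edgeR). Without mouse T2, which is in neither group but enters the spread, their adjusted p-values were 0.0756 and 0.0535 by edgeR, and Npy (0.41, SE 0.182, adjusted p = 0.204 by edgeR) and Vip (2.89, SE 1.36, adjusted p = 0.24 by edgeR) were the other members under 0.05.

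Genes that differ between regions of the striatum were looked at beside Pvalb. They were chosen after values were seen and were not tested. Dlk1, a gene of the ventral striatum, was at 44.2 to 88.9 CPM in the 5 ablated libraries and at 58.3 CPM in control mouse G3, the control with the least Pvalb, against 7.56 to 41.7 CPM in the other controls. Summed with Crym, Nts and Cartpt it gave 246 to 431 CPM in ablated mice, 335 CPM in mouse G3 and 77.9 to 262 CPM in the other controls. Gpr155, a gene of the dorsolateral striatum, was at 84.5 to 91.4 CPM in ablated mice, inside the control range of 41.5 to 125 CPM (median 92.3 CPM), and mouse G3, at 41.5 CPM, and mouse T2, which had the most Pvalb, at 47.0 CPM were both low. Cnr1, the other dorsolateral gene looked at, was at 68.6 to 122 CPM in ablated mice (median 93.6 CPM). Controls were at 57.0 to 169 CPM (median 115 CPM), with mouse G3 the lowest and mouse T2 at 85.4 CPM. Summed, the 2 genes gave 153 to 208 CPM in ablated mice, 98.6 CPM in mouse G3 and 132 CPM in mouse T2. The other controls were at 190 to 266 CPM. Of 10 genes of spiny neurons 1 was lower and 1 higher at an unadjusted p-value under 0.05, where 5.31% of all genes were lower. Without mouse T2, 4 were lower and 1 higher, where 5.79% of all genes were lower. The higher one, Pdyn, then passed after adjustment (log2 fold change 0.66, SE 0.14, adjusted p = 0.030 by edgeR). Of 5 myelin genes 4 were lower in ablated striatum at an unadjusted p-value under 0.05, where 5.31% of all genes were. Their sum was 1810 to 2420 CPM in ablated and 1920 to 5230 CPM in control libraries. Mag, 1 of them, passed after adjustment (log2 fold change -0.91, SE 0.155, adjusted p = 0.0117 by edgeR). The part of the place of dissection, of spiny neurons and of myelin in the Pvalb result was not tested.

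The sequence around a start of Pvalb is shown beside those of Sst and Th, markers of the types it was set against. An element looked for there was in the windows of Sst and Th and not in that of Pvalb. Each window is 300 bases of RefSeq's GRCm38.p6, from 250 bases before to 50 after the start, read 5′ to 3′ on the gene's strand, with matches to the cAMP response element TGACGTCA in capitals.
Pvalb, chr15:78206351-78206650, minus strand: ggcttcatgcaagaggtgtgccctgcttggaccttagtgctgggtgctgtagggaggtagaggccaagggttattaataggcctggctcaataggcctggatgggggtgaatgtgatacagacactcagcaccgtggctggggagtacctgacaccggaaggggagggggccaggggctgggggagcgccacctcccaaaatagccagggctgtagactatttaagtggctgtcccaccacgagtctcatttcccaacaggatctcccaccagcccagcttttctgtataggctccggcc
Sst, chr16:23890795-23891094, minus strand: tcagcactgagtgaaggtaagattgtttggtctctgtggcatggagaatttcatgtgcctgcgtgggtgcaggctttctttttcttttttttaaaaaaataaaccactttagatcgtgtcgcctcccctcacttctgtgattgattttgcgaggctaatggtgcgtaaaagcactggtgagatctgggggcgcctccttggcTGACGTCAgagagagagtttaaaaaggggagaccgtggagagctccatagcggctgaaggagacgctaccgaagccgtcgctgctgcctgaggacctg
Th, chr7:142899946-142900245, minus strand: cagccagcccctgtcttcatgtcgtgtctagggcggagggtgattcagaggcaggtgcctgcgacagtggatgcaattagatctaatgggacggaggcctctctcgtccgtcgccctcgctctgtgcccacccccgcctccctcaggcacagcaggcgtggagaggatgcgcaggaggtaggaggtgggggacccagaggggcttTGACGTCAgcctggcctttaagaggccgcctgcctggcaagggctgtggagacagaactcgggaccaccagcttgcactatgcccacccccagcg
RefSeq's table held windows for 9 of the 10 members, Calb2 having none, and the element, which reads the same on both strands, was in those of 2 members, Sst and Th. It was in 588 of 32851 windows of all genes (1.79%). The TATA element TATAAA, searched on both strands, was in 13.6% of all windows and in none of the 3 shown. Among the members it was in windows of Lhx6, Gad1 and Vip. A second window of Pvalb, chr15:78204188-78204487, is not shown and held neither element. A match is a description of letters only, and neither Sst nor Th was called in either tissue.

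The markers of the Sst, Npy and Nos1 type did not pass the test in the striatum. Sst encodes somatostatin, a peptide that inhibits release at distal dendrites, and stood at 101.9, 77.5, 65.5, 127.6 and 137.5 CPM in ablated mice A1 to A5 and at 75.1 to 113 CPM (median 95.4) in the 10 controls. The ablated libraries lay on both sides of the whole control range, and the log2 fold change was 0.11 (SE 0.151, adjusted p = 0.865 by edgeR). Npy, the gene of neuropeptide Y, was at 55.2 to 79.2 CPM in ablated mice and 44.6 to 84.8 CPM in controls, a log2 fold change of 0.11 (SE 0.147, adjusted p = 0.846 by edgeR). Nos1, the neuronal nitric oxide synthase, was at 40.7 to 51.5 CPM in ablated mice and 29.1 to 65.7 CPM in controls, a log2 fold change of -0.10 (SE 0.171, adjusted p = 0.893 by edgeR). Ablated libraries of both Npy and Nos1 lay inside the control range.

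Th, which encodes the rate-limiting enzyme of dopamine synthesis, was close to the lower limit of the striatum data, with 13 to 41 counts a library. It stood at 5.18 to 9.80 CPM in ablated mice and 3.39 to 10.3 CPM in controls, a log2 fold change of 0.31 (SE 0.286, adjusted p = 0.756 by edgeR). Calb2, which encodes calretinin, ranged from 1.06 to 17.6 CPM among ablated mice and from 1.96 to 34.7 CPM among controls. Its highest level was in mouse T2, and its log2 fold change of -0.15 (SE 0.602) became 0.51 (SE 0.465, adjusted p = 0.714 by edgeR) without that mouse. Vip had 0 to 16 counts a library, with 0 in 3 of the 5 ablated libraries, and its log2 fold change of -1.07 (SE 1.08, adjusted p = 0.784 by edgeR) is poorly set at this depth.

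Lhx6, a transcription factor of interneurons born in the medial ganglionic eminence, which include both the Pvalb and the Sst types, was at 5.92 to 10.9 CPM in ablated mice and 5.23 to 13.6 CPM in controls (log2 fold change -0.11, SE 0.251). Gad1 and Gad2 encode the enzymes that make GABA and are read from spiny neurons as well. Gad1 was at 217 to 293.6 CPM in ablated mice and 147 to 391 CPM in controls (log2 fold change -0.08, SE 0.169). Gad2 was at 228 to 265 CPM in ablated and 181 to 264 CPM in control mice, with 5 of 5 ablated libraries above the control median of 202 CPM and a log2 fold change of 0.22 (SE 0.102, unadjusted p-value 0.0428, adjusted p = 0.454 by edgeR). Levels of both enzymes overlapped between the groups.

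Members were also compared between genes. On the scale of CPM of transcript ends, which was not divided by transcript length, the mean level over the 15 striatum libraries was highest for Gad1 (262 ± 62.2 CPM) and Gad2 (223 ± 28.7 CPM). Sst (97.1 ± 20.3 CPM), Pvalb (85.9 ± 135 CPM), Npy (63.2 ± 12.2 CPM) and Nos1 (47.2 ± 10.6 CPM) followed, and Lhx6, Calb2, Th and Vip were at 8.92, 7.65, 6.47 and 0.891 CPM. Of neighbours in this order, Gad2 and Sst, Nos1 and Lhx6, and Th and Vip lay farther apart than the sum of their SDs, and the other pairs did not. Without mouse T2 Pvalb was at 52.0 ± 30.8 CPM (n = 14), below Npy (64.5 ± 11.5 CPM), and Calb2 at 5.72 ± 4.71 CPM, below Th (6.68 ± 2.24 CPM).

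**Figure D2:**
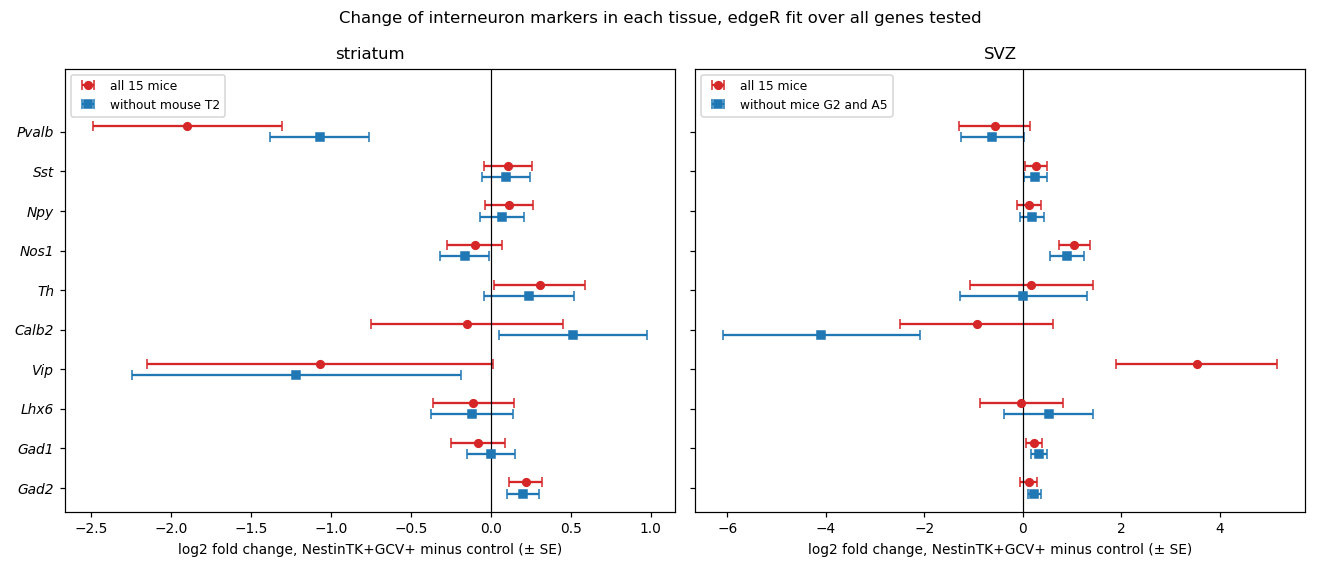
Log2 fold change of each member (points; x axis, NestinTK+GCV+ minus control; bars, SE from the edgeR fit) in the striatum and the SVZ, with all 15 mice (circles) and without mouse T2 in the striatum or mice G2 and A5 in the SVZ (squares). Pvalb in the striatum was at -1.90 and, without mouse T2, at -1.07, and Nos1 in the SVZ was at 1.04 and, without mice G2 and A5, at 0.90; Vip was under the filter on low counts in the SVZ without those mice.

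Whether Pvalb moved apart from the other types was tested on its log2 ratio to each of 5 markers in the same library. In the striatum the ratio of Pvalb to Sst was -3.34 to -0.90 on the log2 scale in ablated mice and -2.69 to 2.64 in controls, with means of -1.80 ± 0.99 (SD, n = 5) and -0.39 ± 1.38 (n = 10). The difference of -1.40 had an exact two-sided permutation p of 0.048 and an adjusted p of 0.16 over the 10 ratio tests of both tissues. The ratio to Npy differed by -1.47 (exact p = 0.0393, adjusted p = 0.16), that to Nos1 by -1.28 (exact p = 0.0799, adjusted p = 0.2), that to Th by -1.66 (exact p = 0.04, adjusted p = 0.16) and that to Calb2 by -1.14 (exact p = 0.153, adjusted p = 0.254).

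All 5 ablated libraries lay below the control median in the ratios to Sst, Npy, Nos1 and Th, and 3 of 5 in the ratio to Calb2. None of the ratios passed after adjustment. Within a tissue all the ratios share the same Pvalb values and are not independent of each other. Without mouse T2 the differences were -1.07, -1.10, -0.88, -1.26 and -1.09, with exact p-values of 0.0719, 0.0589, 0.12, 0.0599 and 0.188. The mean ratio to Sst ran downwards in the order NestinTK+PBS+ (0.17), NestinTK-PBS+ (-0.31), NestinTK-GCV+ (-1.24) and NestinTK+GCV+ (-1.80). Without mouse T2 the NestinTK+PBS+ mean was -0.65, below that of NestinTK-PBS+ mice.

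**Figure D3:**
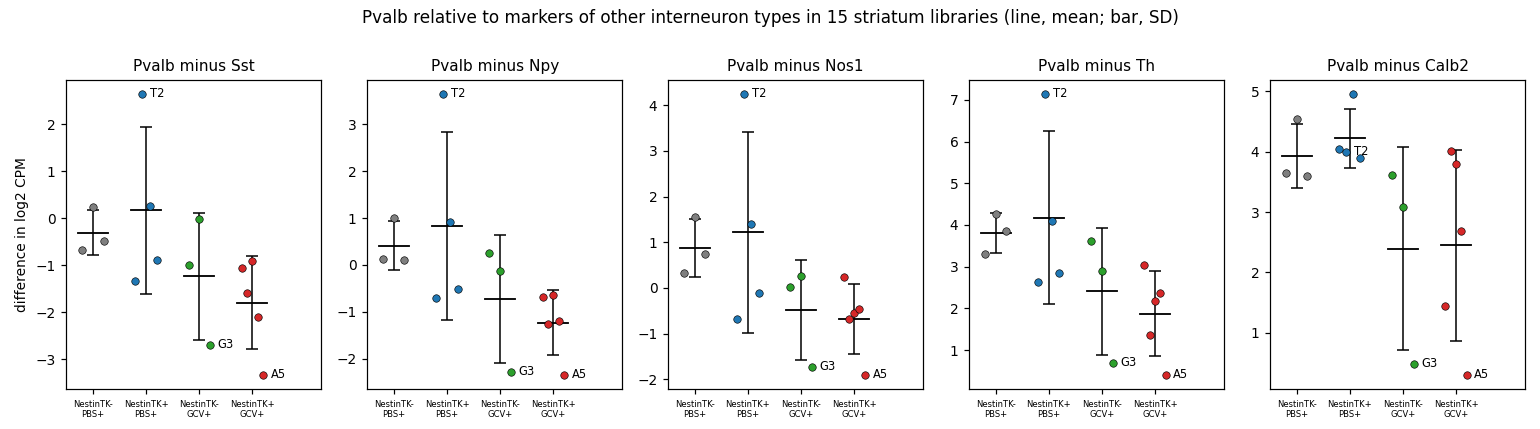
Difference between the log2 CPM of Pvalb and that of Sst, Npy, Nos1, Th or Calb2 in each of the 15 striatum libraries (points) by group, with the mean (line) and SD (bar). Ablated libraries sat between -3.34 and -0.90 in the panel of Sst, control mouse G3 at -2.69 and control mouse T2 at 2.64.

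The other genes known for the fast-spiking type were examined with a list of 13, of which Pvalb was 1. At an unadjusted p-value under 0.05, 8 of 13 were lower in ablated striatum and 0 higher, against 5.31% of all genes, and the median log2 fold change was -0.48. Pvalb was the only one called. Cplx1, a regulator of fast vesicle release, had a log2 fold change of -0.45 (SE 0.148, adjusted p = 0.248 by edgeR) and Syt2, its fast calcium sensor, -0.52 (SE 0.185, adjusted p = 0.319 by edgeR). Fitted values were below 0 in 9 of the 13 genes and above 0 in 4. Those 4 were Hapln1 (0.25, SE 0.273), Erbb4 (0.20, SE 0.176), Pthlh (0.18, SE 0.461) and Kit (0.03, SE 0.233). The list sum of mouse T2, 2412 CPM, was above the 632 to 1160 CPM of all other libraries. Without mouse T2, 5 of 13 were lower at an unadjusted p-value under 0.05, where 5.79% of all genes were, and the median was -0.32.

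In the list of 9 genes of the Sst, Npy and Nos1 type 0 had an unadjusted p-value under 0.05 by edgeR in the striatum, with a median log2 fold change of 0.085. Of all genes tested 10.5% were under that level in either direction, and 5.31% were lower at it. Of the list of 10 for the Th, Calb2 and Vip types 9 had a lower fitted value, 1 of them, Prox1, a transcription factor of several interneuron types, at an unadjusted p-value under 0.05 (log2 fold change -0.65, SE 0.264, adjusted p = 0.378 by edgeR). Of 10 lineage factors and 5 cholinergic genes 0 passed 0.05 by edgeR, though 2 cholinergic genes were lower at that level without mouse T2, where 5.79% of all genes were. Of 7 genes of GABA synthesis, transport and breakdown Gad2 alone did, and none without mouse T2, and of 4 neurogliaform genes Lamp5 was higher (log2 fold change 0.51, SE 0.151) and Id2 lower (-0.34, SE 0.132) at that level. No gene of these 7 lists reached an adjusted p-value of 0.05 by edgeR in the striatum.

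**Figure D4:**
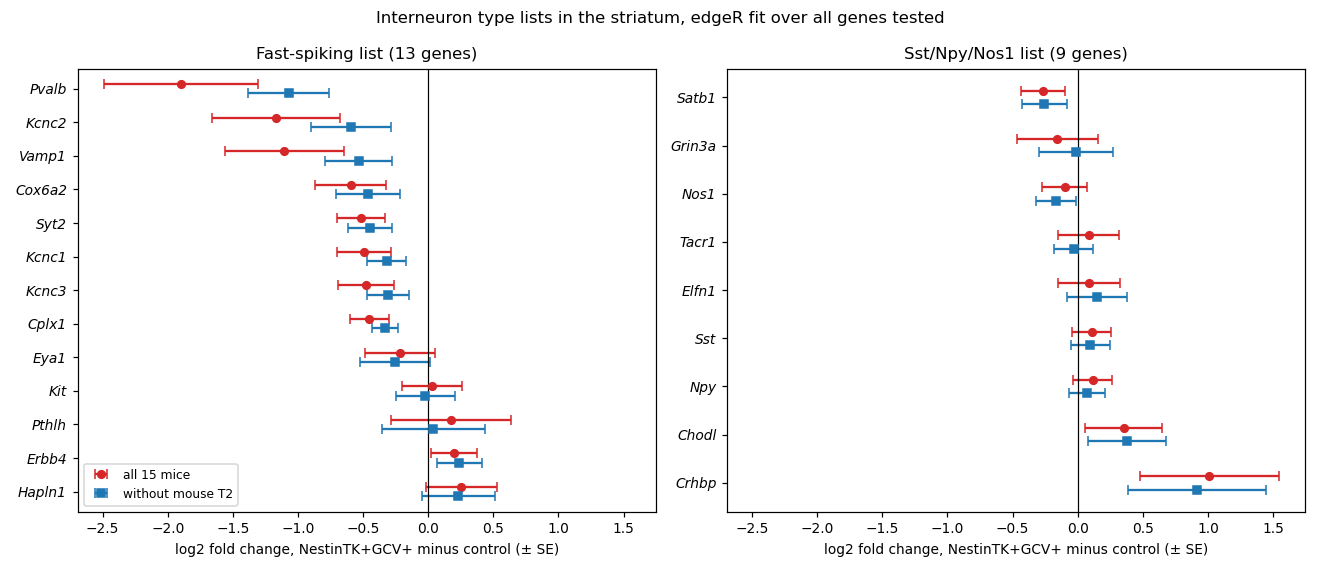
Log2 fold change in the striatum (x axis, NestinTK+GCV+ minus control; bars, SE from the edgeR fit) of the 13 genes of the fast-spiking list and the 9 genes of the Sst, Npy and Nos1 list, with all 15 mice (circles) and without mouse T2 (squares). Pvalb lay farthest to the left in its list, at -1.90 and -1.07, and 9 of 13 genes of the fast-spiking list were below 0 against 3 of 9 of the other.

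In the SVZ Nos1 was higher in ablated mice and was the single member called of 10, where 260 of 16375 genes were called (1.59%). It stood at 35.9, 54.4, 58.6, 133.7 and 90.5 CPM in NestinTK+GCV+ mice A1 to A5, and at 35.5, 20.9 and 60.3 CPM in NestinTK-GCV+ mice G1 to G3. NestinTK-PBS+ mice P1 to P3 were at 35.5, 57.3 and 32.6 CPM and NestinTK+PBS+ mice T1 to T4 at 38.8, 15.3, 29.4 and 37.3 CPM. All 5 ablated libraries were above the control median of 35.5 CPM, and those of mice A4 and A5 were above every control.

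The log2 fold change of Nos1 in the SVZ was 1.04 (SE 0.313, unadjusted p-value 0.00348, adjusted p = 0.347 in the quasi-likelihood test of edgeR with Benjamini-Hochberg adjustment), with means of 74.6 ± 38.4 CPM (SD, n = 5) and 36.3 ± 14.0 CPM (n = 10). It was 0.72 (unadjusted p-value 0.0351 by edgeR) without ablated mouse A4, and to 0.90 (unadjusted p-value 0.0174 by edgeR) without mice G2 and A5, where 1.5% of genes were called. The call was lost too without mouse A5 (0.97, unadjusted p-value 0.0112) and, with a change just under 2-fold, without mouse G2 (0.97) or T2 (0.95) alone. By edgeR 0 members had an adjusted p-value under 0.05, against 0.00611% of genes, and 2 of 10, Nos1 and Vip, had an unadjusted one under 0.05, against 9.81% of genes. Gm26995, a gene on the opposite strand whose exons overlap those of Nos1, had 15 counts in all SVZ libraries together.

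Genes of other cell types were looked at beside Nos1 in the SVZ. Genes of spiny neurons had fitted values above 0 in 8 of 10, with a median log2 fold change of 0.22 and 0 under an unadjusted 0.05 by edgeR. Without mice G2 and A5, 6 of 10 were higher at that level, where 3.67% of all genes were. Of 9 neuroblast genes 7 were lower at an unadjusted p-value under 0.05, where 6.09% of all genes were. Igfbpl1 had the lowest p-value of them (log2 fold change -7.03, SE 1.18, adjusted p = 0.071 by edgeR). Of the choroid plexus genes 4 of 4 were lower at that level, with Ttr at 4.49 to 9.88% of the counts of 3 control libraries. Without those 3 libraries Nos1 was at 1.12 (unadjusted p-value 0.00587 by edgeR). The part of spiny neurons and neuroblasts in the Nos1 result was not tested.

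**Figure D5:**
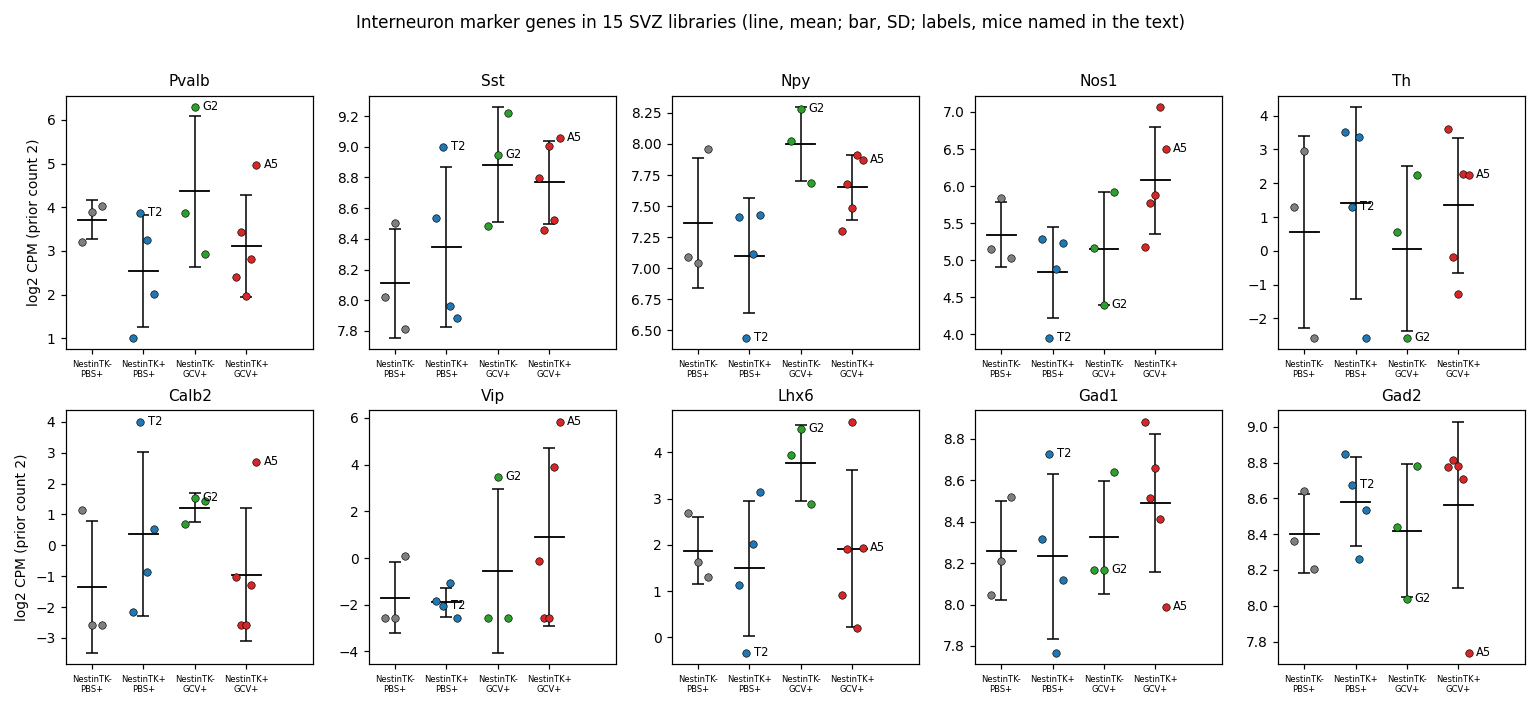
Level of each member in the 15 SVZ libraries (points; y axis, log2 CPM with a prior count of 2) by group, with the mean (line) and SD (bar) of each group. Nos1 was highest in ablated mouse A4, and Pvalb and Vip were each highest in mouse G2 or A5, the libraries with cortical genes.

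Pvalb in the SVZ stood at 5.13, 10.6, 3.72, 6.86 and 31.0 CPM in ablated mice A1 to A5 and at 1.85 to 78.2 CPM (median 11.9) in controls. Its highest levels were in mice G2 and A5, the libraries with cortical genes, and the log2 fold change was -0.57 (SE 0.721, adjusted p = 0.874 by edgeR). Sst was at 352 to 532 CPM in ablated and 224 to 598 CPM in control mice (log2 fold change 0.27, SE 0.219), and Npy at 158 to 241 and 86.7 to 311 CPM (0.13, SE 0.237). Vip reached 56.6 CPM in mouse A5 and 14.8 CPM in mouse A4, against 0 to 0.748 CPM in the other ablated mice and 0 to 11.1 CPM in controls. Its log2 fold change of 3.53 (SE 1.64, unadjusted p-value 0.0441, adjusted p = 0.498 by edgeR) rested on those libraries, and Vip was not tested without mice G2 and A5 because too few libraries passed the filter. Th, Calb2 and Lhx6 had 0 to 295 counts a library and log2 fold changes of 0.17 (SE 1.25), -0.94 (SE 1.56) and -0.03 (SE 0.843). Calb2 was at -4.09 (SE 2.00, adjusted p = 0.513 by edgeR) without mice G2 and A5 and, with the sign turned, at 0.23 without mouse T2. Gad1 (0.23, SE 0.164) and Gad2 (0.11, SE 0.172) had groups that overlapped.

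Per kilobase of exon, the scale on which genes can be compared in whole-transcript data, Sst (543 ± 165 CPM per kb, n = 15) and Npy (339 ± 105) had the highest mean levels in the SVZ. Gad2 (63.3 ± 13.0), Gad1 (43.4 ± 9.36), Pvalb (14.5 ± 18.1) and Nos1 (4.40 ± 2.69) came next. Th, Vip, Lhx6 and Calb2 were at 1.74, 1.66, 1.48 and 1.26 CPM per kb. Of neighbours in this order, Npy and Gad2, and Gad1 and Pvalb, lay farther apart than the sum of their SDs, and the other pairs did not.

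Of the 4-group contrasts in the SVZ, NestinTK+GCV+ against NestinTK+PBS+ mice called Nos1 as 1 of 10 members (log2 fold change 1.30, SE 0.417, adjusted p = 0.618 by edgeR), as 1.19% of genes were, with 2 members under an unadjusted 0.05 (7.13% of genes). By edgeR 0 members were called against NestinTK-GCV+ mice (0.94% of genes), with 0 under an unadjusted 0.05 (7.45%). For the drug in wild-type mice 0 were called (1.06%) and 1 was under 0.05 (7.65%), and for the transgene under PBS 0 were called (0.195%) and 0 were under 0.05 (2.69%). The interaction called 0 (0.837% of genes) and had 1 under 0.05 (5.09%), with Nos1 at 1.41 (SE 0.642, unadjusted p-value 0.0416, adjusted p = 0.942 by edgeR).

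In the SVZ the list of the Sst, Npy and Nos1 type had 2 of 9 genes higher at an unadjusted p-value under 0.05, where 3.73% of all genes were, with a median log2 fold change of 0.41. The other was Tacr1, the receptor for substance P on these cells (1.31, SE 0.483, adjusted p = 0.385 by edgeR). Without mice G2 and A5 it was again 2 of 9, where 3.67% were. The fast-spiking list had 0 of 13 at that level by edgeR, with a median of 0.17. Lineage factors were lower in 2 of 10 (6.09% of all genes), Dlx1 and Dlx2, which neuroblasts also express, and the list of the Th, Calb2 and Vip types had 2 of 9 lower, Sp8 and Htr3a, and 1 higher, Vip. Genes of GABA handling (7), neurogliaform (4) and cholinergic (5) genes had 0 at that level by edgeR. Fitted values were above 0 in 5 of 5 cholinergic genes (median 0.72), 6 of 7 GABA genes (median 0.21) and 2 of 4 neurogliaform genes. Without mice G2 and A5 each of these lists had 1 gene at that level by edgeR, where 3.67% of all genes were higher. Slc18a3 (cholinergic, 1.67, SE 0.718) and Slc32a1 (GABA, 0.45, SE 0.187) were higher, and Id2 (neurogliaform, -0.46, SE 0.196) was lower.

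The effect in the striatum was set against that in the SVZ by the difference between tissues within each mouse. For Nos1 the striatum was 0.57 log2 units below the SVZ in ablated mice (mean -0.57 ± 0.73, n = 5) and above it in controls (0.48 ± 0.62, n = 10), a difference of -1.05 (exact two-sided permutation p = 0.016, adjusted p = 0.16 over the 10 members). For Pvalb the difference was -1.01 (exact p = 0.288, adjusted p = 0.594). The tissues were prepared with different kits, so that only the change of this difference with the group is compared.

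Across the 15 striatum libraries 0 of the 45 pairs of members had an adjusted permutation p under 0.05, with or without mouse T2, and 12 had an unadjusted one under 0.05. The strongest pair was Npy with Th (Pearson r = 0.72, permutation p = 0.0027, adjusted p = 0.056; Spearman rho = 0.67, p = 0.0074, adjusted p = 0.12), with r = 0.58 without the 2 libraries farthest from the median of Npy and 0.95 within the 10 controls. Pvalb was negative with Th (r = -0.63, permutation p = 0.0086, adjusted p = 0.056; rho = -0.58, p = 0.026, adjusted p = 0.15), with r = -0.42 without the 2 farthest and -0.53 without mouse T2. It was as strongly negative with Gad2 (r = -0.64, permutation p = 0.0062, adjusted p = 0.056), with r = -0.61 and -0.62 in those settings. With Gad1 it was positive (r = 0.65, permutation p = 0.01, adjusted p = 0.057), with r = 0.52 and 0.50. Pvalb with Sst had r = -0.31 (permutation p = 0.27, adjusted p = 0.59) and rho = -0.31. As a description over 15 libraries and 9420 genes, the genes most like Pvalb were Fndc5 (r = 0.91), Enpp2, Gbe1, Slc38a1 and Vma21, and without mouse T2 Agpat3 (r = 0.86), Fam20a, Tbck, Cacnb2 and Klf9. Those most like Sst were Sppl2a (0.87), Rictor, Cenpc1, Med6 and Hmgn3, and those most like Th were Lingo2 (0.84), Tsc22d1, Incenp, Zfp62 and Gfra4.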

How the data were processed

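For each tissue the authors deposited a table of raw read counts, without normalization. Per the labels and the paper's methods, the low-input SMART-Seq kit served for SVZ libraries and QuantSeq FWD for those of the striatum, and reads were trimmed with Trimmomatic, aligned with STAR (2.5.3a) to mm10 with Gencode M16 and counted with featureCounts. The strand setting is not given in the sources used here. Here each tissue was fitted alone. The filter kept genes above 1 CPM in 3 or more libraries (15419 and 16375), counts were scaled with TMM factors, and ablated mice were compared with the 10 pooled controls, or the 4 groups with each other, by edgeR's quasi-likelihood test (edgeR 4.0.16, R 4.3.3), with p-values adjusted by Benjamini and Hochberg's method over every gene that was fitted. The test was tried on simulated data first. DESeq2 (1.42.0) and limma-voom (3.58.1) were alternatives. Ratios and tissue differences used log2 CPM with a prior count of 2 and exact permutation of the mice over 3003 splits, and correlations used 100000 permutations (scipy 1.17.1). The members, the 12 gene lists and the tests were chosen with earlier results of these data known, and the thalamic, ventral and dorsolateral genes after values were seen. Besides the members, list genes are named where they were called or were among the 3 with the lowest p-value of their list, and any other was chosen after its values were seen. Positions come from GENCODE M21 (GRCm38). The labels give each mouse's number and not its litter or batch. Reads were amplified and carry no molecular identifiers, so that counts near 0 vary by more than counting error.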

Additional observations from a re-analysis of the deposited data

Results flagged for a closer look

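Single libraries lay far from the rest of their group in 15 of the cases below, out of 60 groups of 4 to 10 libraries examined. A rate of about 1 in 20 by chance holds for separate groups of values without skew. The pooled controls contain the NestinTK+PBS+ mice, so that 1 library can be flagged in both, and CPM of genes with few counts are skewed. The count can therefore not be set against that rate. The striatum of control mouse T2 was highest for Pvalb (561 CPM, with 121 CPM the next, both among the NestinTK+PBS+ mice and among all controls) and for Calb2 (34.7 CPM, the next at 3.41 CPM in its group and 12.0 CPM among all controls), and was the lowest NestinTK+PBS+ library for Npy (44.6 CPM against 64.5 CPM). Its SVZ library was highest for Calb2 (15.8 CPM) in its group and among all controls. Among ablated mice, A5 was highest in the SVZ for Pvalb (31.0 CPM), Calb2 (6.28 CPM) and Vip (56.6 CPM) and lowest for Gad2 (213 CPM against 418 CPM). Among all controls, mouse G2 was highest in the SVZ for Pvalb (78.2 CPM) and Vip (11.1 CPM). Mouse A4 was the highest ablated library in the striatum for Vip (2.22 CPM), and mouse A3 the highest in the SVZ for Lhx6 (25.0 CPM).

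Tests of a difference in effect were flagged in 4 cases at an unadjusted p-value under 0.05, and none of them passed after adjustment. For the interaction 2 of 10 members were flagged in the striatum, where 15.1% of all genes were under 0.05 by edgeR. In the SVZ 1 of 10 was, where 5.09% of all genes were. The test between tissues was run on the members alone, so that it has no share of all genes beside it. The effect on Nos1 in the striatum minus that in the SVZ was -1.05 (exact permutation p = 0.016, adjusted p = 0.16). The interaction of genotype and treatment was -2.08 for Pvalb in the striatum (adjusted p = 0.235 by edgeR), -0.64 for Nos1 in the striatum (unadjusted p-value 0.0368, adjusted p = 0.296 by edgeR) and 1.41 for Nos1 in the SVZ (adjusted p = 0.942 by edgeR). Without mouse T2 the interaction in the striatum was -0.61 for Pvalb and -0.82 for Nos1 (adjusted p = 0.0669 by edgeR).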

How the results depend on the processing

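The members called in the striatum numbered 1 and in the SVZ 1. Both counts became 0 with limma-voom, against NestinTK-GCV+ controls alone and with an adjusted p under 0.05 in place of the thresholds, and in the SVZ also with only the mice numbered from 40 and without mice G2 and A5. When single mice were left out the counts ran from 0 to 1 in both tissues. Pvalb in the striatum was negative under all 23 alternatives. It ran from -2.67 against NestinTK+PBS+ controls alone to -0.71 against NestinTK-GCV+ controls alone (unadjusted p-value 0.0391 by edgeR). It was at -1.32 by limma-voom (unadjusted p-value 0.0313), and at -2.43 within the mice numbered from 40. The fits that gave -2.67 and -2.43 both keep mouse T2, without which the change against all other controls was -1.07. All ablated mice and no NestinTK-PBS+ mice are numbered from 40. Nos1 in the SVZ stayed between 0.72 and 1.30 under all 25, while Pvalb in the SVZ, not called under any, ran from -1.54 to 0.63. Against NestinTK-GCV+ controls alone the ratio of Pvalb in the striatum differed by -0.56 to Sst, -0.51 to Npy and -0.53 to Th, and by -0.19 to Nos1 and 0.05 to Calb2 (for the first 3, exact permutation p = 0.536, 0.536 and 0.571). When single mice were left out the ratio differences in the striatum ran from -1.66 to -1.02 (Sst), -1.75 to -1.10 (Npy), -1.54 to -0.88 (Nos1), -1.98 to -1.26 (Th) and -1.53 to -0.60 (Calb2), with unadjusted exact p under 0.05 in 4, 5, 1, 5 and 1 of 15, and that to Nos1 in the SVZ from -1.67 to -0.92. The cause was not tested. The leave-outs without mouse T2 and without mice G2 and A5 for contrasts, lists and group means were chosen after seeing the data. No paired analysis was possible because the groups compared within a tissue hold different mice.

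Depth limits Vip, Th, Calb2 and Lhx6, which had few counts in many libraries. The wide spread between SVZ libraries limits all members there, and the 3 controls that share the drug are few.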
